A study of Mus musculus with 20 samples.

Results

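Interferon-stimulated genes are switched on when a cell senses interferon, and 9 of them were followed here in mouse heart ventricle: Irf7, Usp18, Isg15, Ifit1, Ifit3, Rsad2, Oasl2, Ifi44 and Rtp4. A gene was measured through probe sets (groups of short probes on the array) that the platform annotation pairs with exactly that 1 symbol, and the probe set of highest mean over the 20 arrays stood for it. Of the 9 genes, 7 had such a probe set, and all 7 lay above the filter on low values, among 12082 genes above it of 18193 measured. Isg15 shares its probe set with another symbol and no probe set was matched to Ifi44, so both were not analysed here.

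Gene expression was measured on 20 Affymetrix arrays, 1 for each ventricle sample, with 5 samples in each of 4 groups. All groups came from female C57BL/6 mice that had their ovaries removed at 8 weeks of age, the placebo group included, and then carried an implanted Alzet minipump for 4 weeks. The pumps delivered 16α-LE2 (an agonist of estrogen receptor α, titles alpha), 17β-estradiol (the main natural estrogen, which activates receptors α and β, titles E2) or placebo (titles OVX). A further group has titles that say beta and a treatment label of control solution. Because these labels disagree, its samples are called beta-titled here. They were kept apart from placebo, except in an alternative fit that pooled them with placebo as controls. The estrogens were bound to cyclodextrin, their doses are not given in the labels, and no group with intact ovaries was among the samples. The labels do not tie each sample to an animal in so many words, so p-values measure the spread between these samples, which may be technical in part.

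Type I interferons bind a receptor that activates STAT proteins, which join IRF9 and bind a DNA element called the interferon-stimulated response element near their target genes. The products of these genes block viral replication or tune the response itself, and most cell types of the heart can express them. Interferon γ uses another receptor and induces a partly shared set of genes, among them guanylate-binding proteins, immunity-related GTPases and antigen presentation genes. In a whole-tissue sample, fewer cells of a type and less RNA per cell cannot be told apart.

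Interferon can act on its target genes through the response element, so this element was looked for in the promoters of the genes followed here. A promoter was taken as the 300 bases from 250 before to 50 after the transcription start in RefSeq (GRCm38.p6). The core of the element was searched as GAAANNGAAA on both strands. Of the 7 genes with a window in the table, 4 held it: Isg15 with 3 overlapping copies, Ifit1 and Ifit3 with 2 each, and Rsad2 with 1. Irf7, Oasl2 and Ifi44 had no copy in this window, and Usp18 and Rtp4 had no window. Among all genes with a window, 3.99% held the core. Of the other gene lists used below, it was held by 10 of 15 interferon γ-responsive genes with a window and 10 of 18 interferon genes. The counts were 13 of 36 for other interferon-stimulated genes and 4 of 13 for class I antigen presentation. They were 3 of 18 for receptors and transducers and 3 of 19 for nucleic acid sensors. The core is thus not particular to the genes followed here. A match describes the letters and does not show that a factor binds there. The stretches around the copies in the 3 measured genes are shown on the gene's strand, with the core in capitals; here it reads as its reverse complement.
Ifit1, chr19:34640739-34640858, + strand: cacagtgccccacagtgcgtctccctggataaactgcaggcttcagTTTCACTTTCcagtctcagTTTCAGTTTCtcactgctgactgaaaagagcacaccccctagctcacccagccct
Ifit3, chr19:34583334-34583453, + strand: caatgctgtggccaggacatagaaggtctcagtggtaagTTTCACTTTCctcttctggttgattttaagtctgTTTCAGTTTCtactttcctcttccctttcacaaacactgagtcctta
Rsad2, chr12:26456509-26456628, − strand: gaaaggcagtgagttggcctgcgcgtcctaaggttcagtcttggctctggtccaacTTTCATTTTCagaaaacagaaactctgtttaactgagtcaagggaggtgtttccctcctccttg

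Values are on a log2 scale, so a difference of 1 is taken as 2-fold. Array means were nearly equal, at 7.37 to 7.38, and the number of arrays limits the precision. Over all genes tested, the median half-width of a 95% interval for 16α-LE2 against placebo was 0.21. Intervals of the 7 genes were wider, from −0.72 to −0.08 for Usp18, the narrowest, and from −0.87 to 0.14 for Rsad2, the widest. Estradiol replicate 33 stood apart over all probe sets, with Spearman correlations to the other arrays of 0.922 to 0.941. Placebo replicate 36 was high in the interferon-stimulated genes, and the comparisons of these genes are therefore given with and without it. Heart muscle markers were high, as the tissue label has it: all 8 (Myh6, Tnnt2 and others) were at 11.96 or above on every array, and Myl2, the ventricular light chain, was at 14.50 or above. Atrial transcripts varied, with the atrial light chain Myl7 between 6.96 and 11.40.

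The regulators come first. Irf7, the transcription factor that amplifies interferon production, was 7.95, 8.02, 7.52, 7.61 and 9.56 in placebo replicates 31, 32, 33, 34 and 36. With 16α-LE2 it was 7.86, 7.67, 7.72, 7.79 and 7.75, with estradiol 7.78, 7.87, 8.22, 7.71 and 8.04, and in the beta-titled group 7.95, 7.67, 7.83, 7.95 and 8.00. A single placebo array was thus high, and the other 19 values of Irf7 overlapped between the groups. Usp18, the protease that removes ISG15 from proteins and damps signalling at the type I receptor, was 7.53, 7.46, 6.96, 7.27 and 8.38 with placebo. Its values were 7.13, 7.09, 7.003, 7.17 and 7.20 with 16α-LE2 and 7.32, 7.38, 7.46, 7.30 and 7.25 with estradiol. All 5 of the 16α-LE2 values of Usp18 lay below all 5 of the estradiol values, while both overlapped placebo and the beta-titled group, which ran from 7.09 to 7.44.

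Among the antiviral effectors, Ifit1 and Ifit3 encode related proteins with tetratricopeptide repeats, and IFIT1 binds viral RNA by its 5′ end. Ifit3 was 8.67, 8.62, 8.25, 8.30 and 10.15 with placebo, and 8.15, 7.97, 8.26, 8.01 and 8.07 with 16α-LE2. It was 8.59, 8.81, 8.55, 8.13 and 8.27 with estradiol, and 8.36, 8.27, 9.03, 8.33 and 8.53 in the beta-titled group. All 16α-LE2 values of Ifit3 lay below all beta-titled values, with 8.26 and 8.27 as the nearest values, and they overlapped the other groups. Ifit1 ran from 7.45 to 7.91 with 16α-LE2, from 7.29 to 8.22 with estradiol, from 7.60 to 8.26 in the beta-titled group and from 7.56 to 9.09 with placebo. Oasl2, a protein of the oligoadenylate synthetase family, was 7.05, 6.83, 6.30, 7.08 and 7.84 with placebo, which spans both its lowest and its highest value over the 20 arrays. In the other groups Oasl2 ran from 6.69 to 7.0003 with 16α-LE2, from 6.97 to 7.29 with estradiol and from 6.87 to 7.21 in the beta-titled group. Its mean over the 20 arrays, 7.01, was close to the filter of 6.93, and its 16α-LE2 mean, 6.84, lay below it. The filter thus kept Oasl2 through its higher values in other groups, and a stricter filter of 7.23 left it out.

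Rsad2, which encodes viperin, a radical SAM enzyme that makes a chain-terminating nucleotide, followed another pattern. It was 10.33, 9.91, 9.53, 10.27 and 10.17 with placebo, so replicate 36 lay in the middle of its group. With 16α-LE2 it was 9.80, 9.31, 9.64, 10.13 and 9.50, with estradiol 10.30, 10.26, 9.82, 9.16 and 8.998, and in the beta-titled group 10.12, 9.71, 10.43, 9.50 and 9.29. All 4 groups of Rsad2 overlapped.

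Rtp4, a Golgi chaperone of some receptors that is also induced by interferon, had its lowest values with 16α-LE2, at 8.39, 8.09, 8.33, 8.18 and 8.30. It was 8.96, 8.93, 8.92, 8.42 and 8.63 with estradiol, 8.69, 8.45, 8.86, 8.51 and 8.56 in the beta-titled group, and 8.94, 8.62, 8.70, 8.23 and 9.69 with placebo. On the probe set used, the 16α-LE2 values of Rtp4 did not overlap those of estradiol or of the beta-titled group, and overlapped placebo through its replicate 34. On its second probe set, which lay below the filter, these groups did overlap. There the values ran from 6.34 to 6.52 with 16α-LE2, from 6.37 to 6.88 with estradiol and from 6.41 to 6.62 in the beta-titled group.

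**Figure D1:**
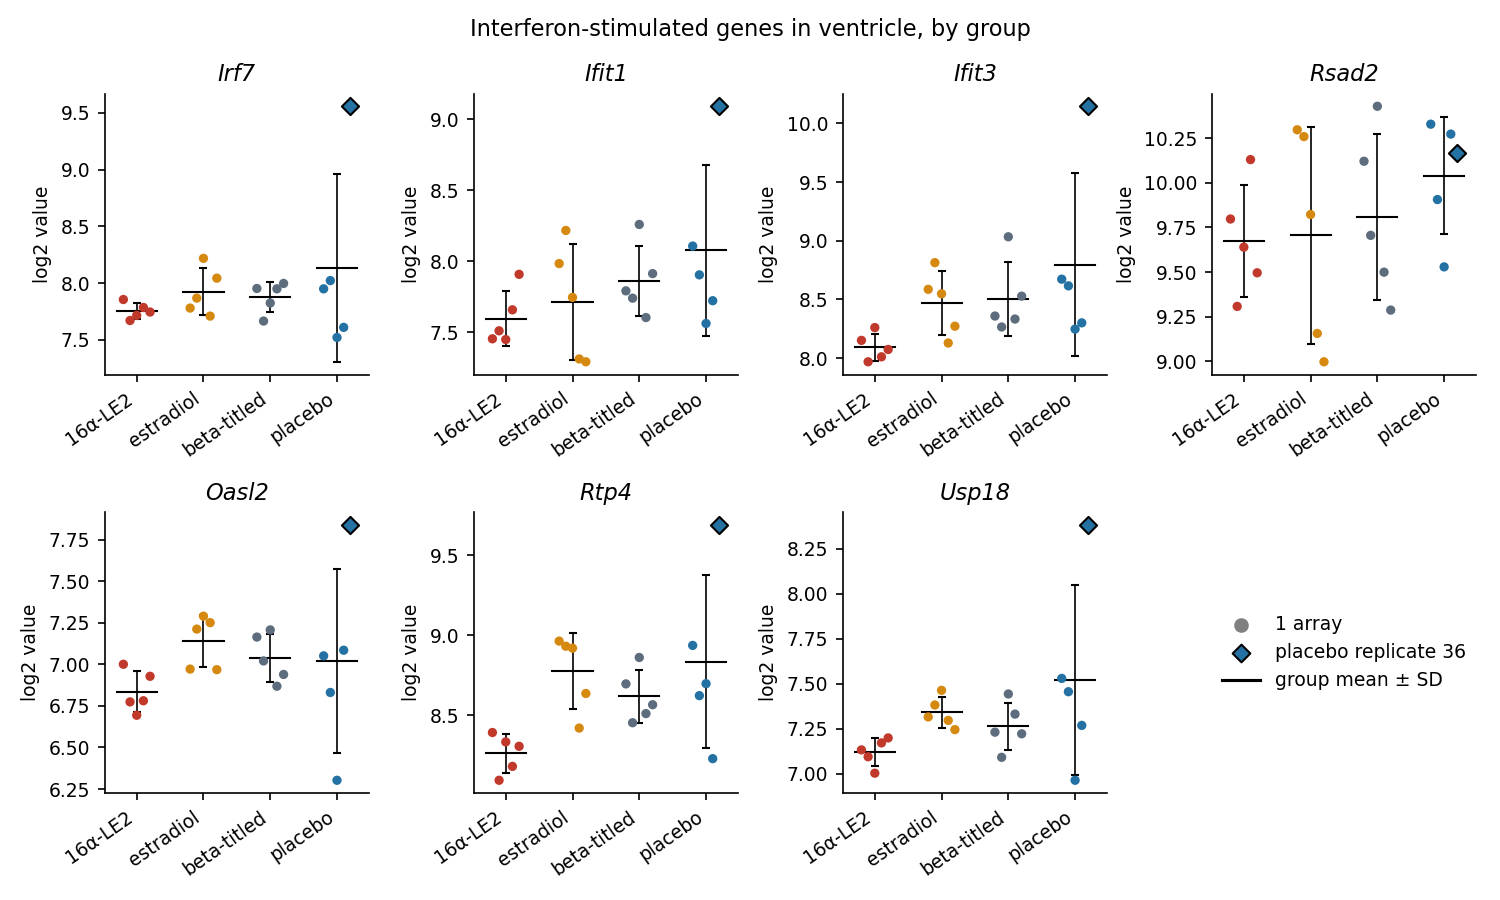
Log2 value of each of the 7 measured genes (y axis) in the groups 16α-LE2, estradiol, beta-titled and placebo (x axis), with 1 point per array and black bars for the group mean ± SD (n = 5). Placebo replicate 36, the diamond, is the highest of 20 arrays for 6 genes and lies within its group for Rsad2.

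Placebo replicate 36 was the highest of the 20 arrays for Irf7, Ifit3, Ifit1, Usp18, Rtp4 and Oasl2, that is for 6 of 7 genes, against 4.97% of all genes tested. Relative to the mean of the other 4 placebo arrays, it was 3.44-fold higher for Irf7, 3.22-fold for Ifit3 and 2.41-fold for Ifit1. The excess was 2.11-fold for Usp18, 2.10-fold for Rtp4 and 2.03-fold for Oasl2. For Rsad2 it was 1.12-fold, and the array ranked 6th. Over all genes tested, 67 (0.555%) were more than 2-fold higher on this array than on the other placebo arrays and 2 were more than 2-fold lower. These values describe 1 array, which has no replicate of its own. The name of the array was part of how the genes were chosen, so its excess is given with no test.

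The array widened the spread within groups. With all arrays, the within-group SDs of the 7 genes lay between 0.28 for Usp18 and 0.44 for Ifit3 and Rsad2, all at or above percentile 94.4 of genes tested, whose median SD was 0.16. Without placebo replicate 36 the SD of Irf7 went from 0.43 to 0.17 and that of Usp18 to 0.14, at percentiles 59.2 and 39.1. Ifit1, Ifit3, Rtp4 and Oasl2 then lay at percentiles 95.4, 89.2, 78.9 and 77.6, above the middle of all genes. Rsad2 kept an SD of 0.46, at percentile 99.5. Averaging the 7 genes after centring each on its own mean gave a level per array of 1.13 on placebo replicate 36 and of −0.30 to 0.23 on the other placebo arrays. That level ran from −0.36 to −0.17 with 16α-LE2, from −0.24 to 0.25 with estradiol and from −0.14 to 0.30 in the beta-titled group. The highest array after placebo replicate 36 was beta-titled replicate 33.

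What stimulation of receptor α did was asked as 16α-LE2 against placebo. All 7 genes were lower on average with 16α-LE2, with a median difference of −0.40 on the log2 scale against −0.03 over all genes. None passed the threshold (a limma p under 0.05 after Benjamini-Hochberg adjustment over the whole array), which 0.223% of all genes did. The groups overlapped for each of the 7 genes, while 2.7% of all genes lay lower with no overlap. At an unadjusted p under 0.05 there were 4 of 7, namely Rtp4, Ifit3, Usp18 and Ifit1, against 9.01% of all genes. Rtp4 was 8.83 ± 0.54 with placebo and 8.26 ± 0.12 with 16α-LE2 (SD, n = 5 each), a difference of −0.57 ± 0.17 (SE; limma adjusted p = 0.213). Ifit3 was 8.80 ± 0.78 and 8.09 ± 0.12 (SD, n = 5 each), a difference of −0.70 ± 0.24 (SE; limma adjusted p = 0.303). For Usp18 the difference was −0.40 (limma adjusted p = 0.394) and for Ifit1 −0.48 (limma adjusted p = 0.513). The differences of Irf7, Rsad2 and Oasl2 were −0.38, −0.37 and −0.19, each with a 95% interval that includes 0.

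Leaving out placebo replicate 36, 6 of 7 genes were lower with 16α-LE2, the median was −0.23 and none passed (limma, 0.306% of all genes did). At an unadjusted p under 0.05 there were 2, Rtp4 at −0.36 ± 0.13 (SE; limma adjusted p = 0.348) and Ifit3 at −0.37 ± 0.15 (SE; limma adjusted p = 0.404), against 10.3% of all genes. The differences of Irf7, Ifit1, Usp18 and Oasl2 became −0.02, −0.23, −0.18 and 0.02. That of Rsad2 was −0.33. Leaving out placebo replicate 33 instead, the array of lowest level in that group, moved the median the other way, to −0.54. None of the 7 genes passed then either (limma, 15 of all genes did). Among the alternatives, weighting the arrays by their quality gave the only call of any of the 7 genes, for Rtp4 in this comparison (−0.54, limma adjusted p = 0.0342).

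Markers of other cell types differed in the same comparison. All 7 endothelial markers were lower with 16α-LE2, with a median of −0.32, as were all 7 fibroblast markers, with a median of −0.31. None of these 14 markers passed with all arrays (limma), against 0.223% of all genes. At an unadjusted p under 0.05 there were 6 and 4, against 9.01% of all genes. Without placebo replicate 36 the medians were −0.35 and −0.39, and 6 of 7 fibroblast markers were lower. Of them 1 passed, Postn (periostin, limma adjusted p = 0.0299), against 0.306% of all genes. Red blood cell markers had the other sign, with 4 of 4 higher and a median of 0.54. Slc4a1, their anion exchanger, passed at 0.57 ± 0.11 (SE, limma adjusted p = 0.0256, and 0.0141 without placebo replicate 36). At an unadjusted p under 0.05 there were 3 of 4 with all arrays, beside the same 9.01% of all genes. All 4 neutrophil markers were higher too, with a median of 0.53. None passed and 2 had an unadjusted p under 0.05 (limma), against 9.01% of all genes. The level of the endothelial list ran from −0.43 to 0.02 with 16α-LE2 and from −0.04 to 0.39 with placebo. For the fibroblast list these ranges were −0.32 to −0.22 and −0.19 to 0.39, for red blood cells 0.03 to 1.02 and −0.29 to 0.11, and for neutrophils −0.21 to 0.97 and −0.54 to 0.18. Their part in the differences of the interferon-stimulated genes was not tested. Macrophage markers had a median of 0.03, and 7 of 9 were higher with 16α-LE2; without the array the median was 0.14, with 9 of 9 higher.

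Estradiol and the beta-titled group were set against the same placebo arrays, so these comparisons share their controls with the one above. With estradiol, 6 of 7 genes were lower than placebo with a median of −0.21, and with the beta-titled group 6 of 7 with a median of −0.23. None passed in either (limma; 0% of all genes did), and none had an unadjusted p under 0.05, against 9.63% and 5.7% of all genes. Without placebo replicate 36 the medians were 0.04 for both, with 5 of 7 genes higher with estradiol and 4 of 7 in the beta-titled group. Again none passed (limma, 0% of all genes did). At an unadjusted p under 0.05 there was 1 gene with estradiol, Oasl2, and none in the beta-titled group, against 12.6% and 9.72% of all genes. Oasl2 was then 0.32 higher with estradiol (95% interval 0.07 to 0.57, limma adjusted p = 0.38), and leaving out placebo replicate 33, its lowest array, gave a difference of −0.06. Without replicate 36 the placebo mean of Oasl2 was 6.82, below the filter of 6.93, and values this low are not separated from background here. The sign of the difference from placebo turned without replicate 36 for 4 of 7 genes with estradiol and for 3 of 7 in the beta-titled group.

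The 16α-LE2 arrays can also be compared without placebo. Set against estradiol, all 7 genes were lower with 16α-LE2, with a median of −0.22 (all genes −0.02). None passed (limma; 0.0166% of all genes did), and 1 had an unadjusted p under 0.05, against 5.19% of all genes. The groups did not overlap for 2 of 7 genes, Rtp4 and Usp18, against 0.588% of all genes in that direction. For Rtp4 the difference was −0.51 ± 0.17 (SE; limma adjusted p = 0.716), with a 95% interval from −0.88 to −0.15. That of Usp18 was −0.22 (limma adjusted p = 0.875; 95% interval −0.54 to 0.10). Placebo replicate 36 enters here only through the shared estimate of spread. When it was left out, 4 of 7 genes had an unadjusted p under 0.05, against 5.31% of all genes, and none passed (limma, 0.0497% of all genes did). The SE of Rtp4 was then 0.12 (limma adjusted p = 0.271). In this comparison all 7 endothelial and all 7 fibroblast markers were lower with 16α-LE2, with medians of −0.24 and −0.25, and 3 of 4 red blood cell markers were higher, with a median of 0.41. None of these markers passed, and 3, 4 and 3 had an unadjusted p under 0.05 (limma, all arrays), against 5.19% of all genes. Their part in the differences of the 7 genes was not tested.

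Against the beta-titled group, all 7 genes were again lower with 16α-LE2, with a median of −0.20 (all genes 0.00). None passed (limma; 0.174% of all genes did) and none had an unadjusted p under 0.05, against 5.6% of all genes. Ifit3, at −0.41 (95% interval −0.91 to 0.09), and Rtp4, at −0.36 (−0.72 to 0.01), did not overlap between the groups, against 1.28% of all genes in that direction. Without placebo replicate 36 both had an unadjusted p under 0.05, against 5.81% of all genes, and none passed (limma, 0.223% of all genes did). The comparisons with estradiol and with the beta-titled group share the 16α-LE2 arrays. Of the markers, 6 of 7 endothelial and 6 of 7 fibroblast ones were lower with 16α-LE2 than in the beta-titled group, with medians of −0.30 and −0.17, and 4 of 4 red blood cell markers were higher, with a median of 0.53. None of them passed with all arrays, and 3 of each list had an unadjusted p under 0.05 (limma), against 5.6% of all genes. Without placebo replicate 36 Postn passed, at −0.94 (limma adjusted p = 0.0353), as 0.223% of all genes did. Their part was not tested here either.

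Between estradiol and the beta-titled group, 4 genes were higher with estradiol and 3 lower, with a median of 0.05. None passed (limma; 0% of all genes did) and none had an unadjusted p under 0.05, against 3.83% of all genes; without placebo replicate 36 there were again none of either, against 3.91% at the unadjusted p. The 95% intervals of the differences reached from −0.60 to 0.53 over the 7 genes and included 0 for each. The doses of the agonists are unknown, so only the duration of treatment is known to match. A test of any difference among the 4 groups called none of the 7 genes (limma F-test; 0.157% of all genes were called), and 1 had an unadjusted p under 0.05, against 6.32% of all genes. That gene was Rtp4 (limma adjusted p = 0.605). Leaving out placebo replicate 36, none was called (0.215% of all genes were) and 3 had such a p, against 7.66% of all genes, with Rtp4 at a limma adjusted p of 0.326.

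**Figure D2:**
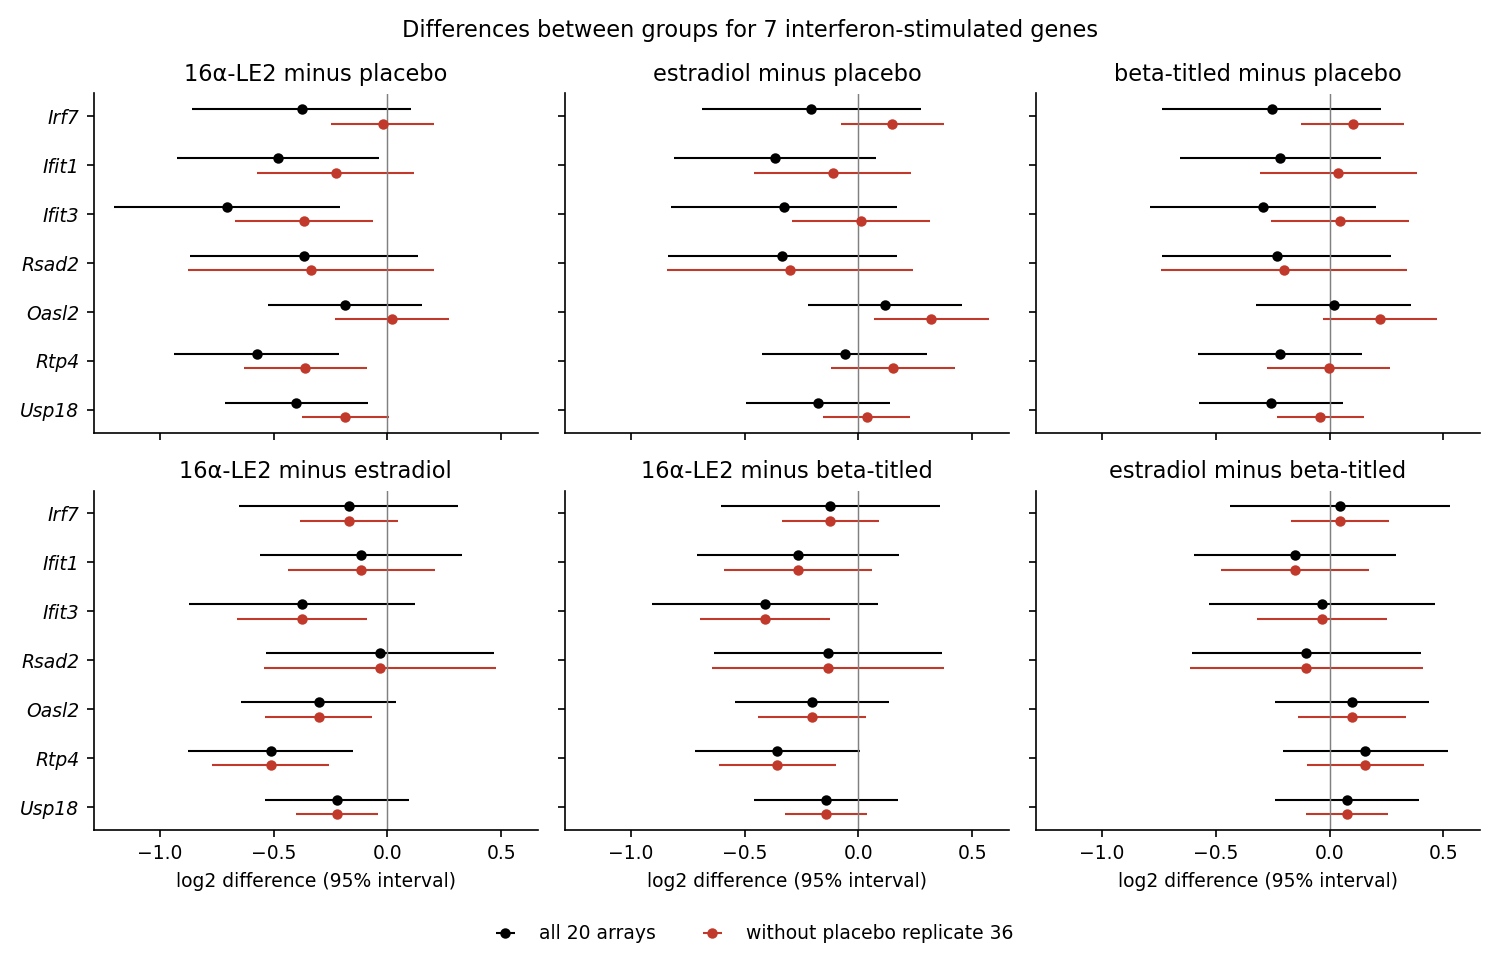
Log2 difference (x axis) with its 95% interval for each gene (y axis) in the 6 comparisons between groups, with all 20 arrays in black and without placebo replicate 36 in red. In the 3 comparisons with placebo most red points lie nearer to 0 or beyond it, and in the other 3 only the width of the intervals differs.

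How the genes moved together was described by the correlation of their deviations from the group means over the 20 arrays; pairs share arrays, and no p is given. For the 15 pairs without Rsad2, the median Pearson r was 0.83, with a range of 0.59 to 0.92. On the other 19 arrays that median was 0.38, with a range of 0.04 to 0.80, while the median Spearman rho went from 0.56 to 0.48. The 6 pairs with Rsad2 had a median Pearson r of 0.38, and of 0.50 without the array. The linear relation among the other 6 genes was thus weaker without that array, and that of Rsad2 with them was not.

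The pattern of Rsad2 was shared by its probe sets. The other 2 probe sets of the gene correlated with the one used at r = 0.96 and r = 0.88 over 20 arrays, and neither had its highest value on placebo replicate 36. Rtp4 had a second probe set too, which lay below the filter with a mean of 6.52. It followed the one used less closely, at r = 0.63 and Spearman rho 0.37 over 20 arrays. Its highest value, 6.95, was on placebo replicate 36. Values this low are not separated from background here. In a search made after the values of Rsad2 were seen, the genes most like it over the 20 arrays were Arhgap18 (Spearman rho 0.90), Zfp760 (0.80), the endothelial receptor gene Tek (0.75), Tnfsf10 (0.75) and Trim12c (0.75). None of them is in the lists of interferon genes used here, but those lists hold only some of the genes that interferon induces. Over the 19 arrays without placebo replicate 36 the first 5 were Arhgap18 (0.91), Zfp760 (0.88), Fnbp1l (0.79), Rasgrp3 (0.78) and Knop1 (0.78).

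**Figure D3:**
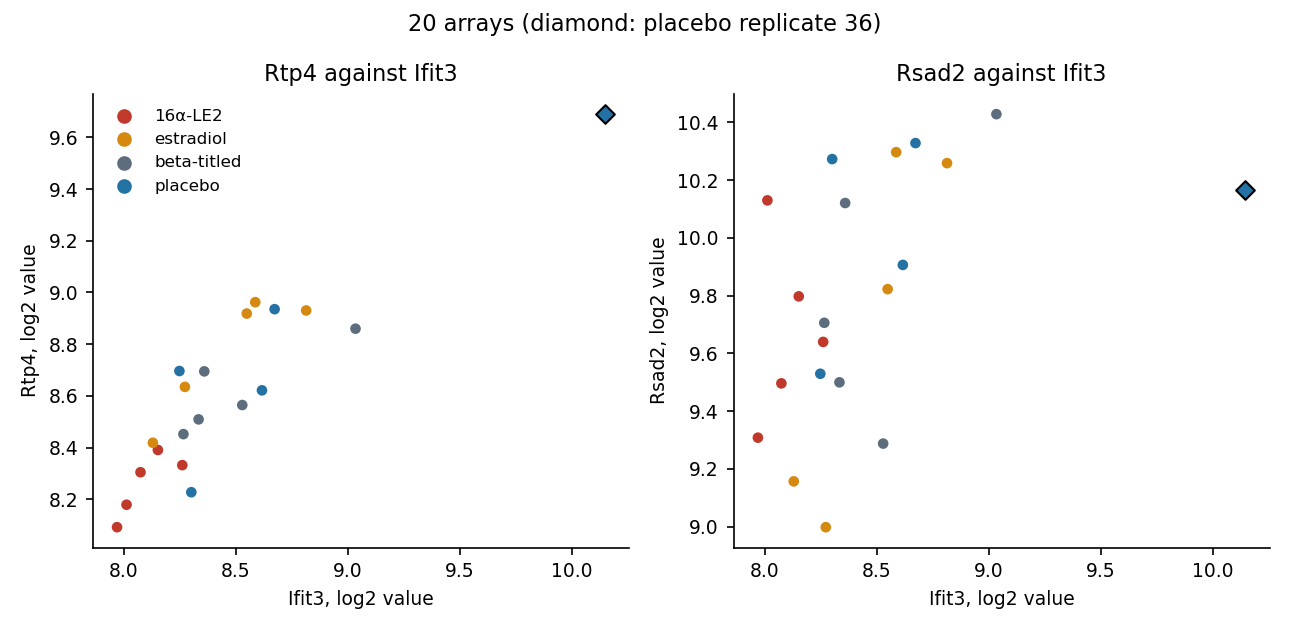
Log2 values of Rtp4 (left, y axis) and of Rsad2 (right, y axis) against those of Ifit3 (x axis), with 1 point per array coloured by group. Placebo replicate 36, the diamond, is at the top right for Rtp4 and at 10.17, below the highest Rsad2 value of 10.43, on the right.

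Genes whose levels over the 20 arrays were most like the mean level of the 7 genes were Trim34a (Spearman rho 0.92), Phf11d (0.89), Trim30a (0.86), Gbp7 (0.86), Sp100 (0.86), Gbp2 (0.85), Cmpk2 (0.85), Gimap4 (0.82), Gbp3 (0.82) and Parp9 (0.80). Of these 10, 8 are in the lists of interferon genes below, which are not complete. Trim34a and Gimap4 are in none of the lists. Over the 19 arrays without placebo replicate 36 the first 5 were the same genes, from Trim34a at 0.90 to Sp100 at 0.83. These rank correlations changed little without the high array, but ranks limit the weight of any 1 array. Pearson r went from 0.87 to 0.83 for Trim34a, 0.90 to 0.89 for Phf11d, 0.87 to 0.81 for Trim30a and 0.91 to 0.77 for Gbp7. For Sp100 it rose from 0.65 to 0.76.

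Upstream of these genes, 10 of 19 interferon genes were measured, and all of them, Ifnb1 and Ifng included, lay below the filter and were not tested. On placebo replicate 36, Ifng was at 6.16 and Ifnb1 at 6.45, both within the range of the other 19 arrays. Of the receptors and signal transducers, 17 of 20 were tested. None passed in any comparison with or without the array (limma), against 0% to 0.306% of all genes. Against placebo with 16α-LE2, 3 of them had an unadjusted p under 0.05, against 9.01% of all genes, and the median was −0.11; without the array there were 2, against 10.3%, and the median was −0.10. Ifngr1, a chain of the interferon γ receptor, had a difference of −0.28, and of −0.23 without the array. Irf1, a transcription factor induced by interferon γ, had one of −0.25, and of −0.13 without it. Irf9, the DNA-binding subunit that joins the STATs, was 2.47-fold higher on placebo replicate 36 than on the other placebo arrays. It was the only 1 of the 17 past 2-fold, against 0.555% of all genes. Of the sensors of foreign nucleic acid and their adaptors, 19 of 26 were tested, with a median of −0.04 with 16α-LE2 against placebo; none passed and 2 had an unadjusted p under 0.05 (limma), against 9.01% of all genes. Without placebo replicate 36 that median was 0.02, with 12 of 19 genes higher. None then passed, against 0.306% of all genes, and 1 had such a p, against 10.3% (limma). Tlr3 and Ifih1, which sense double-stranded RNA, differed by −0.25 and −0.27, and by −0.23 and −0.13 without the array.

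A list of 48 other interferon-stimulated genes, 40 of them tested, had the same direction as the 7 genes. With 16α-LE2 against placebo 34 of 40 were lower, with a median of −0.24; none passed and 15 had an unadjusted p under 0.05 (limma), against 9.01% of all genes. On the 19 arrays without placebo replicate 36, 29 of 40 were lower and the median was −0.08, with none passing and 6 at an unadjusted p under 0.05 (limma), against 10.3% of all genes. Parp9, a partner of an interferon-induced ubiquitin ligase, had a difference of −0.40 (limma adjusted p = 0.15), and of −0.30 without the array. Isg20, an exonuclease first described also as an estrogen-regulated transcript, went the other way, at 0.58 (limma adjusted p = 0.168), from 7.81 ± 0.11 with placebo to 8.40 ± 0.55 with 16α-LE2 (SD, n = 5 each). Its values ran from 7.91 to 9.28 with 16α-LE2 and from 7.64 to 7.94 with placebo. Without 16α-LE2 replicate 33, the array at 9.28, the difference was 0.36; that array also had the highest level of all in the neutrophil and red blood cell lists, at 0.97 and 1.02, whose part was not tested. Isg20 was not among the genes past 2-fold on placebo replicate 36.

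Genes induced mainly by interferon γ stood out most on placebo replicate 36. All 14 tested were more than 2-fold higher there than on the other placebo arrays, with a median log2 excess of 2.18, and all 14 had their highest value on it. The immunity-related GTPases led, with Igtp 16.0-fold, Irgm1 7.54-fold, Irgm2 6.84-fold and Iigp1 5.38-fold, beside the guanylate-binding protein gene Gbp6 at 6.04-fold. Of 11 genes for antigen presentation on class I, 9 were past 2-fold and all 11 highest, with the immunoproteasome subunits Psmb8 at 6.02-fold and Psmb10 at 4.84-fold and the heavy chain H2-K1 at 3.52-fold. Of the other 40 interferon-stimulated genes, 8 were past 2-fold, among them Bst2 (4.14-fold), Xaf1 (2.97-fold) and Ifi47 (2.80-fold). These shares stand beside 0.555% of all genes. The genes named here were chosen among the largest of their lists. Outside these lists, the chaperone genes Hspa1b and Hspa1a were 6.97-fold and 4.97-fold higher, the chemokine gene Ccl8 5.65-fold and BC023105 20.4-fold; they were named after their values were seen.

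Some markers of immune cells were high on the array too. Of 9 macrophage markers, 6 were highest on placebo replicate 36, against 4.97% of all genes tested. The level of the list was 0.60 there against −0.49 to 0.31 on the other arrays. By group that level ran from −0.06 to 0.14 with 16α-LE2, from −0.28 to 0.11 in the beta-titled group and from −0.10 to 0.31 with estradiol. C1qa, a complement gene of macrophages, was 11.42 on the array and at most 11.02 elsewhere. Of 10 measured T and NK cell markers, 6 were highest on it, 5 of them below the filter, with Gzma at 7.90 against at most 7.13 elsewhere. Of the 4 above the filter, only Thy1 was highest on it, at 8.04 against at most 7.96 elsewhere, beside the same 4.97% of all genes. The level of these 4 was 0.12 on the array and from −0.10 to 0.10 on the others. B cell, plasmacytoid dendritic cell and neutrophil markers had no gene that was highest there, and heart muscle markers were at their lowest level, −0.21. Of 5 atrial markers, 2 were more than 2-fold higher than on the other placebo arrays, against 0.555% of all genes. The level of the atrial list, 0.42, ranked 6th of the 20 arrays. The part of these cell types in the excess of the interferon-stimulated genes was not tested.

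**Figure D4:**
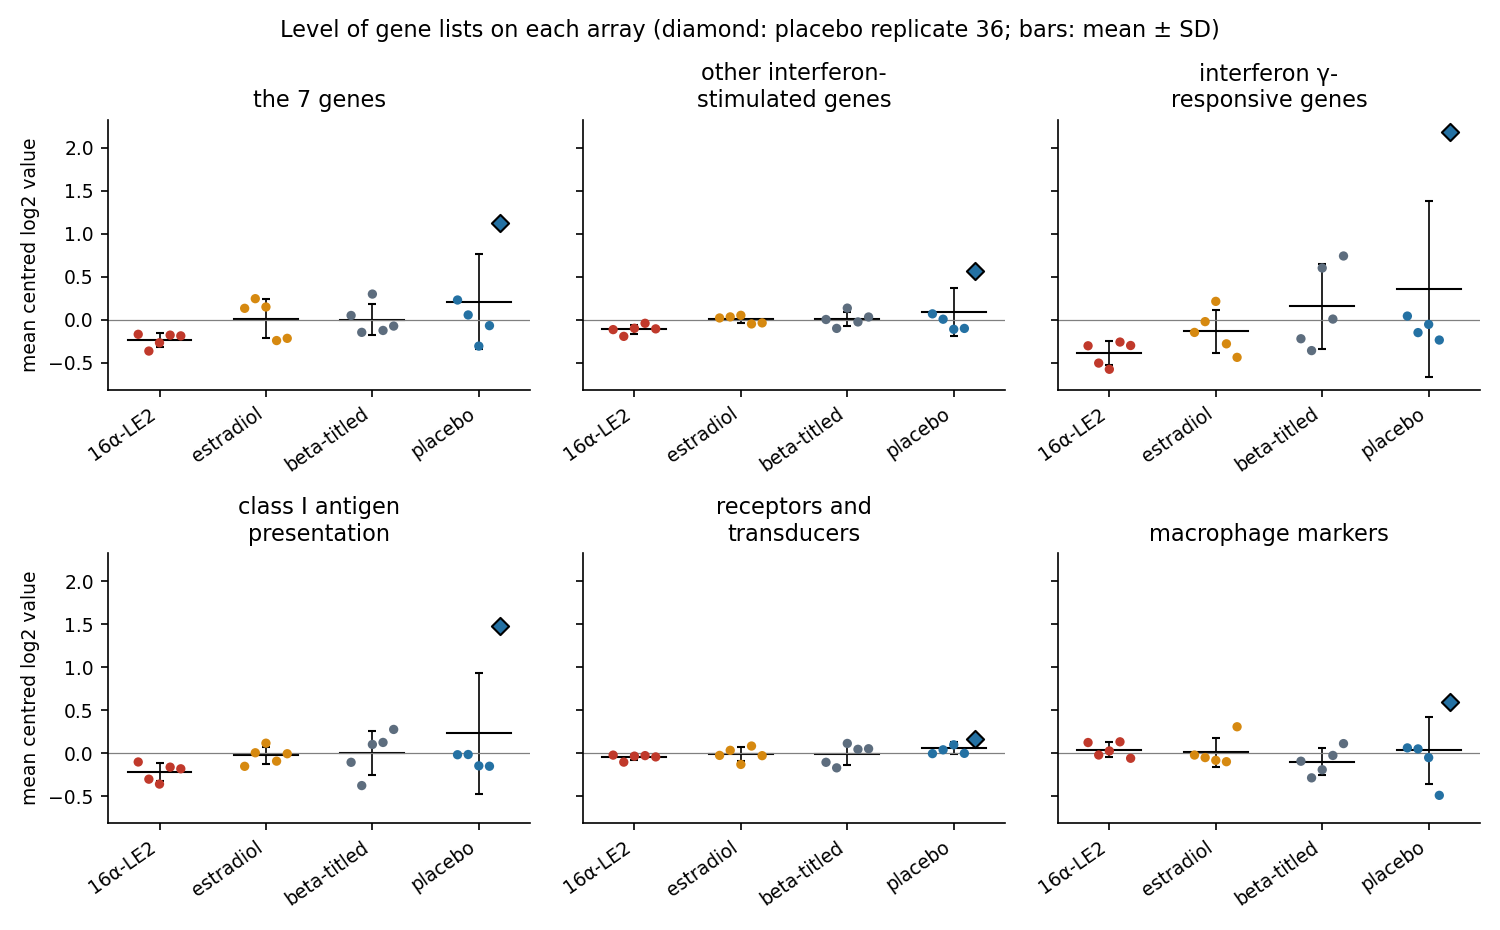
Level of 6 gene lists on each array (y axis: mean over the list of log2 values centred on each gene's mean) by group (x axis), with 1 point per array and bars for the mean ± SD (n = 5). Placebo replicate 36, the diamond, is highest in every panel, at 2.19 for interferon γ-responsive genes, 1.48 for class I antigen presentation and 1.13 for the 7 genes.

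Away from that array, the interferon γ-responsive list differed most between 16α-LE2 and the beta-titled group, where 13 of 14 genes were lower with 16α-LE2 and the median was −0.59, against −0.20 for the 7 genes. With all arrays none passed and 5 had an unadjusted p under 0.05 (limma), against 5.6% of all genes; without placebo replicate 36, 1 passed and 12 had such a p, against 5.81%. The endothelial, fibroblast and red blood cell differences given above are of the same comparison, and their part was not tested. The gene that passed was Cxcl9, a chemokine that attracts activated T cells. Its values ran from 6.81 to 7.01 with 16α-LE2, from 7.14 to 7.70 with estradiol, from 7.30 to 8.11 in the beta-titled group and from 7.32 to 9.02 with placebo. All 5 of the 16α-LE2 arrays thus lay below all others. How many of all genes separate in this way was not counted. The 16α-LE2 mean of Cxcl9, 6.91, was below the filter of 6.93, so the filter kept this gene only through its higher values in other groups. Values this low are not separated from background here. Against the beta-titled group Cxcl9 differed by −0.83 ± 0.22 with all arrays (SE; limma adjusted p = 0.169) and by the same amount with an SE of 0.14 without placebo replicate 36 (limma adjusted p = 0.00775). Against placebo the difference was −0.96 ± 0.22 (SE, limma adjusted p = 0.0668), and −0.68 ± 0.15 without the array (SE, limma adjusted p = 0.0495). Both calls of Cxcl9 were made without an array already named as high in interferon-stimulated genes. H2-Aa, a class II antigen presentation gene, differed by −1.03 from placebo, and by −0.68 without the array. It differed by −0.98 from the beta-titled group (limma adjusted p = 0.31, and 0.0533 without placebo replicate 36). Within the beta-titled group the levels of this list differed widely, from −0.36 to 0.74, with replicate 36 of that group the highest of all arrays after placebo replicate 36.

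For class I antigen presentation, all 11 genes were lower with 16α-LE2 than with placebo and than in the beta-titled group, with medians of −0.52 and −0.25. None passed in either, and 4 and 0 had an unadjusted p under 0.05 (limma), against 9.01% and 5.6% of all genes. Leaving that array out, the median against placebo was −0.15, with 10 of 11 genes lower; again none passed, and none had an unadjusted p under 0.05 (limma), against 10.3% of all genes. Against the beta-titled group none passed either, and 3 of 11 then had such a p, against 5.81% of all genes. Tap1, a subunit of the peptide transporter, had a difference of −0.52 from placebo, and of −0.19 without the array. Erap1, the peptide-trimming aminopeptidase, had differences of −0.22 and −0.11.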

How the data were processed

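Total RNA (100 ng per array) from 20 ventricle samples was labelled with biotin and hybridised to Affymetrix arrays, per the labels. The values deposited by the authors, 1 per probe set and array, were read as log2 intensities from their range of 5.07 to 15.31. How the authors summarized and normalized them, and on which build, is not given in the sources used here. Of 45101 probe sets, 64 controls were left out; 34945 carry 1 gene symbol, 932 several and 9160 none, and 34741 gene IDs matched RefSeq's table for GRCm38.p6, with no symbol changed. Genes with a mean above 6.93, the median of the probe sets, were kept.

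One limma fit (version 3.58.1, R 4.3.3; 4 group means, eBayes with an intensity trend) took in all 20 arrays, with Benjamini-Hochberg adjustment over 12082 genes and a threshold of 0.05. The fit was tested on simulated data. Correlations were computed with scipy 1.17.1 and figures drawn with matplotlib 3.10.9. Alternatives covered the filter, probe set summary, scaling, array weights, groups in the fit, a replicate block, the eBayes trend, pooled controls and each array left out. The 9 genes and all gene lists were chosen with earlier results of these data known. Named besides the 9 were the genes most like them in rank over the arrays and, from each list, up to 4 called genes or the 2 of smallest p in the F-test; genes named for their excess on placebo replicate 36, other marker genes and the search for genes like Rsad2 were chosen after the values were seen.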

Additional observations from a re-analysis of the deposited data

Results flagged for a closer look

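Over 32 sets of arrays of 1 group (each of the 7 genes and their mean level, by group), 2 had 1 array whose gap to the nearest other was large for the range of its group. Irf7 in the placebo group had 9.56 on replicate 36 and 8.02 on the nearest array, and Ifit3 had 10.15 and 8.67. Replicate 36 was already named as high when the genes were chosen, so both gaps describe that array and test nothing. Such a gap comes up by chance in about 1 in 20 sets, and the sets share arrays.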

How the results depend on the processing

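None of the 7 genes was called in any comparison with any array left out; over 1226 differences and settings, 34 turned sign, none lost a call and 1 gained one. With array weights, 1 of the 7 genes passed for 16α-LE2 against placebo, and genes called over the whole array were 357 there, 122 for 16α-LE2 against the beta-titled group, 20 against estradiol and 165 in the F-test (27, 21, 2 and 19 otherwise). Against the beta-titled group the count was 32 after quantile normalization and 46 with the fit limited to the compared groups. Against estradiol it was 4 with no filter, 6 with a stricter filter or centred arrays and 0 when probe sets of a gene were averaged; averaging gave 17 against placebo and 11 in the F-test, and pooled controls gave 71. Leaving out each array gave 8 to 74 genes for 16α-LE2 against placebo, 7 to 37 against the beta-titled group, 0 to 11 against estradiol, 3 to 26 in the F-test, 0 to 1 for estradiol against placebo and 0 to 1 against the beta-titled group. The extremes came without placebo replicate 31 (8) and estradiol replicate 33 (74 and 37), without 16α-LE2 replicates 30 (7 against the beta-titled group), 29 (11) and 33 (3), and without placebo replicate 36 (26). Averaging the probe sets of Rtp4, of which the second lay below the filter, made its differences with 16α-LE2 smaller. They went from −0.57 to −0.35 against placebo, −0.51 to −0.30 against estradiol and −0.36 to −0.20 against the beta-titled group.

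Signs turned for small differences. Rsad2 with 16α-LE2 against estradiol was 0.031 as the mean of its probe sets and 0.0026 with centred arrays. Quantile normalization gave −0.020 for Oasl2 in the beta-titled group and 0.0066 for Rtp4 with estradiol, both against placebo. Pooled controls gave 0.048 for that difference of Rtp4, and array weights −0.028 for Irf7 with estradiol against the beta-titled group. With each array left out, 16α-LE2 against the beta-titled group ranged from −0.26 to 0.021 for Rsad2; against estradiol from −0.22 to 0.012 for Ifit1 and from −0.21 to 0.12 for Rsad2; and against placebo from −0.37 to 0.018 for Oasl2. Estradiol against the beta-titled group ranged from −0.12 to 0.098 for Ifit3, −0.028 to 0.10 for Irf7 and −0.25 to 0.075 for Rsad2. Estradiol against placebo ranged from −0.46 to 0.011 for Ifit3, −0.36 to 0.15 for Irf7, −0.063 to 0.32 for Oasl2, −0.21 to 0.15 for Rtp4 and −0.32 to 0.036 for Usp18. The beta-titled group against placebo ranged from −0.34 to 0.038 for Ifit1, −0.43 to 0.045 for Ifit3, −0.41 to 0.10 for Irf7 and −0.16 to 0.22 for Oasl2. Each of these highest values against placebo came without placebo replicate 36. The cause of these shifts was not tested beyond the arrays left out.

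No pairing of the samples by the replicate numbers of their titles was seen. Over 17 pairs of arrays with the same number, the correlation of deviations had a median of −0.02 and was over 0.1 in 6. Over 133 pairs with other numbers, the median was 0.01 and 44 were over 0.1. A correlation over all genes would not show a pairing limited to few genes. With the number as a replicate block, 23 genes were called for 16α-LE2 against placebo, 17 against the beta-titled group and 2 against estradiol, and none of the 7 genes. Signal over background was not analysed here, so low levels are not separated from background.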
